A study of Mus musculus with 6 samples.

Results

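Muscle transcripts 48 h after eccentric contractions were compared with those 48 h after isometric contractions, on 4 of the 6 arrays of the series. In an eccentric contraction the active muscle is stretched while it pulls, and in an isometric contraction it pulls at a held length. The tissue was the tibialis anterior of mice, the muscle at the front of the shin. Mice had made 50 contractions of one kind or the other in a non-invasive model, and the muscle was taken 48 h later. The sources used here do not give the strain, sex, age or genotype of the animals. For each kind of contraction, RNA of 4 animals was combined into 1 pool, and that pool was put on 2 Affymetrix MGU74Av2 arrays, A and B. A control pool was made from the other leg, stimulated only as far as a torque measurement needed. It is given below as a background level, and no source says which animals those legs came from.

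The array held 12488 probe sets, of which 10833 were annotated to a single gene, for 8251 genes. Signals are the authors' deposited intensities, a linear measure of brightness with no unit. A gene counted as measured when its signal lay above a floor of 120.8 (the 40th percentile of all signals) on both arrays of the eccentric or of the isometric pool, and 5622 genes were. Values below the floor were set to it before any ratio was taken. A gene was called when the log2 difference of the pool means was 1 or more in size (2-fold), with the same sign in each of the 4 pairings of an eccentric and an isometric array. Both arrays of a pool carry the same RNA, so n = 2 arrays measures labelling and hybridisation and not the spread between animals. No p-value was therefore computed, and every statement below is about these pools and not about the kinds of contraction.

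Stretch of an active muscle can damage sarcomeres, which are bounded by Z-discs, and the plasma membrane of fibres. Injured fibres make heat shock proteins, which refold or hold damaged proteins, and proteins that sense strain at the Z-disc and along titin. In the days after injury, monocytes enter the muscle, become macrophages and clear debris with lysosomal proteases and complement, before satellite cells rebuild the fibres.

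Of the 5622 measured genes, 97 were called higher in the eccentric pool (1.73%) and 38 were called lower (0.676%). The median difference over all measured genes was 0.02 on the log2 scale. Most called genes lay close to the threshold. Between 2-fold and 3-fold were 79 of the 97 higher and 34 of the 38 lower genes, and 12 higher genes differed 4-fold or more. The median fold of the called genes was 2.36 for the higher and 2.16 for the lower ones. In 56 of the 135 called genes (49 higher and 7 lower) the smallest of the 4 pairings was itself past 2-fold. In 10 of the higher genes both isometric arrays lay at the floor, and in 17 more 1 of them did. In the lower genes, both eccentric arrays were at the floor for 2 and 1 of them for 10. Each of these genes counted as measured only through the pool where it was higher, so the filter in part sets such calls. With all 4 arrays required to lie above the floor, 70 genes were higher and 26 lower.

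The spread between arrays of one pool sets how far these calls can be read. The log2 difference of eccentric A and B had an SD of 0.29 over genes, and 60 genes (1.07%) were at least 2-fold apart. Isometric A and B differed more, with an SD of 0.41 and 152 genes (2.70%) at least 2-fold apart. The SD of the difference between the pool means was also 0.41, and its 135 genes made up 2.40%. The number of genes past 2-fold between the pools was thus no larger than that between the isometric arrays. These are unlike quantities, however. A pool mean averages 2 arrays, which narrows array noise, while A minus B compares single arrays. The equal SDs therefore do not show that the pools differed no more than arrays of 1 pool. The upper tail was longer between the pools, where Saa3 reached 3.73.

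**Figure D1:**
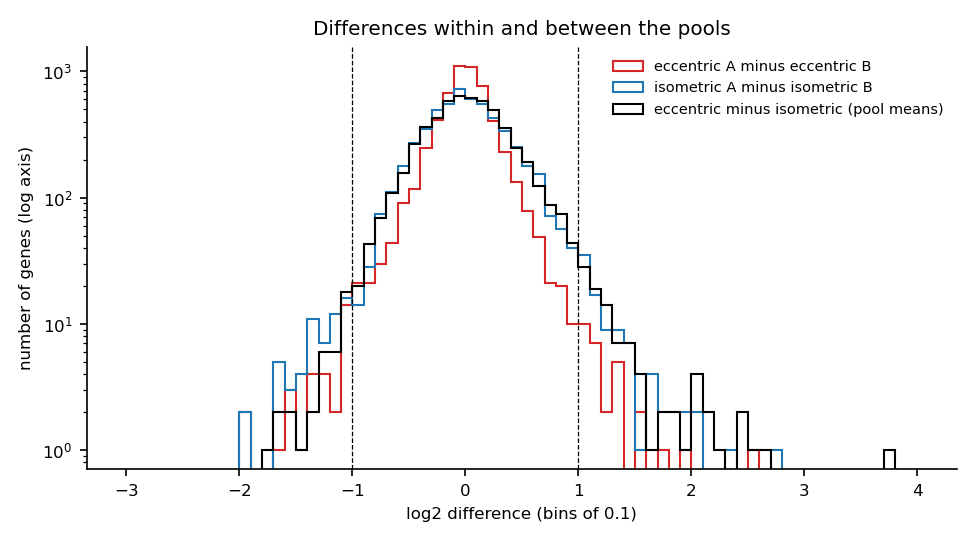
Number of genes (log axis) by log2 difference, in bins of 0.1, for the arrays of the eccentric pool (red), those of the isometric pool (blue) and the means of the pools (black), with dashed lines at 2-fold. The blue and black outlines nearly coincide over most of the range, with SDs of 0.41 each, while the red one is narrower at 0.29. The black outline compares means of 2 arrays and the others compare single arrays.

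**Figure D2:**
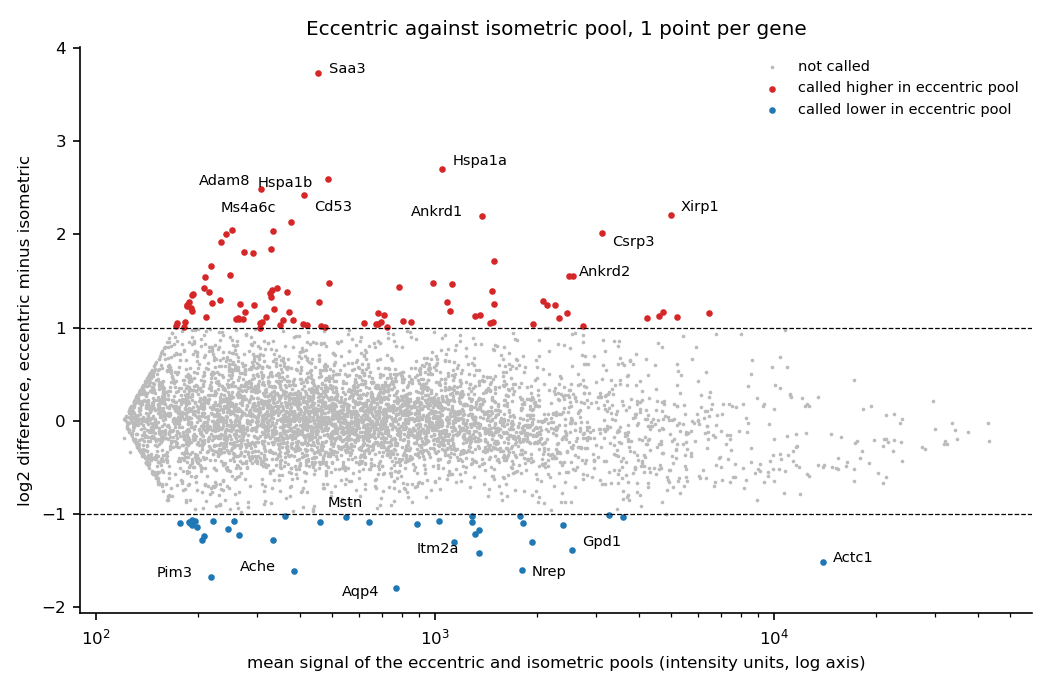
Log2 difference of the eccentric and isometric pools against the mean signal of both (log axis), 1 point for each of the 5622 measured genes, with the 97 called higher in red and the 38 called lower in blue. Dashed lines mark 2-fold. Saa3 stands highest at 3.73 and Aqp4 lowest at -1.79, and among bright genes Xirp1 and Csrp3 stand apart.

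The labelled tissue was checked against its markers first. Of 23 skeletal muscle fibre genes on the array 22 lay above the floor on all 4 arrays, and none of the 22 was called. Acta1, the skeletal alpha-actin, had signals of 33679.7 and 32397 on eccentric A and B and 30642 and 40929.5 on isometric A and B. Ckm, the creatine kinase of muscle, had 12909 and 16867 against 15634 and 17742. In neither gene did the pools separate. Over the whole list, 20 of 22 differences lay below 0. Both eccentric arrays were below both isometric ones in 11 genes (50%), against 25.1% of all measured genes. Of the 22, 21 were among the 1125 brightest measured genes, whose own median was -0.11. Mylpf, the fast regulatory light chain, lay lowest at 2123 and 2890.5 against 5254 and 4316. The summed signal of the fibre markers was 450159 and 431045 for eccentric A and B, 447731 and 622957 for isometric A and B and 617971 and 506983 for control A and B. Isometric B and control A were thus the brightest arrays in this list, while isometric A lay within the eccentric range, and the list's median log2 difference of -0.22 ran from -0.49 to -0.05 as single arrays were left out.

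Markers of other cells moved with the comparison to different degrees. The summed signal of 43 macrophage and monocyte genes was 50503 and 49664 on the eccentric arrays, 29819.5 and 29154 on the isometric arrays and 19103 and 20040.3 on the control arrays. The 17 neutrophil genes summed to 2967 and 2587, 2508 and 2318 and 3049 and 2674 in the same order, and 8 of them lay below the floor on all 4 arrays. The 26 lymphocyte and natural killer cell genes, 13 of them below the floor throughout, summed to 4149 and 4303 on the eccentric arrays and 3771 and 4104 on the isometric ones. The 11 adipocyte genes summed to 20124 and 20810.3 against 28675 and 28718. In a bulk sample, fewer cells of a type and less RNA per cell cannot be told apart. The 3' to 5' ratio of beta-actin, which rises as RNA degrades, was 0.43 and 0.45 (log2) on the eccentric arrays, 0.14 and 0.28 on the isometric arrays and 0.01 and 0.07 on the control arrays. The same ratio of Gapdh was 0.12 and 0.13 on the eccentric, -0.07 and 0.27 on the isometric and -0.05 and -0.07 on the control arrays, so there the exercised pools overlapped. The part of either ratio in the differences below was not tested. The sources used here name no batch, scan date or lane.

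Stress genes of the Z-disc held the largest differences among brightly measured muscle genes. Of 17 measured genes in the list for the Z-disc and mechanical stress, 6 were called higher and 0 lower, with a median of 0.45, which ran from 0.39 to 0.53 without single arrays. The list includes genes already known to be high in the eccentric pool, so its count is a description. Xirp1, which binds actin and is found at cell junctions and damaged sarcomeres, had 10913 and 10393 on eccentric A and B, 2088 and 2548 on isometric A and B and 2251 and 2256 on control A and B. The isometric arrays bracketed the control arrays, and both eccentric arrays lay 4.08-fold or more above either isometric one. The ratio of the pool means was 4.62-fold.

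Ankrd1, which has ankyrin repeats, binds titin and can enter the nucleus, had 2988 and 2909 in the eccentric, 635 and 655 in the isometric and 273 and 473 in the control pool. Here the isometric arrays lay between the others without overlap, and the eccentric pool was 4.57-fold above the isometric one. Its relative Ankrd2 had 4260.3 and 4246 against 1482 and 1422, with 1107 and 998 in the control pool, a 2.93-fold difference. Csrp3, the muscle LIM protein of the Z-disc, had 6022 and 6504 against 1637 and 1469.5 and was 4.04-fold higher. Its control signals were 1049 and 1133, so the isometric arrays stood above control by a far smaller step than the eccentric ones. All 4 genes kept their call without any single array and passed 2-fold in every pairing.

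The other called members were Cryab and Pdlim3. Cryab, the alpha-B-crystallin that shields desmin and titin, had 9739.9 and 9542 against 4373 and 4247, a 2.24-fold difference, on a probe set whose suffix marks possible cross-hybridisation. Pdlim3, a PDZ and LIM protein that binds alpha-actinin, had 6590.2 and 6739 against 3969 and 2343. Its isometric arrays were far apart, and without isometric B it was no longer called (log2 0.75). The brightest members that were not called lay on both sides. Myoz1, a calcineurin-binding Z-disc protein, had 16959 and 15603 against 18663 and 22179, and Ldb3, a PDZ protein of the Z-disc, had 14675 and 14021 against 18472 and 22843. Both were below the isometric pool on each eccentric array. Fhl1, a LIM protein of muscle, lay above it with 20773 and 19501 against 14386 and 15323. Des, which encodes desmin, had 4194 and 4304 against 4045 and 4339 and did not separate.

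The promoter of Ankrd1 is shown because the gene had one of the largest steps of the list and muscle promoters often carry the MCAT element CATTCC, which TEAD factors bind. The 250 bases before its RefSeq start site (chr19:36119845-36120094, GRCm38.p6, minus strand) hold the 6 letters at 2 places on the opposite strand, as GGAATG, given in capitals.
Ankrd1 promoter: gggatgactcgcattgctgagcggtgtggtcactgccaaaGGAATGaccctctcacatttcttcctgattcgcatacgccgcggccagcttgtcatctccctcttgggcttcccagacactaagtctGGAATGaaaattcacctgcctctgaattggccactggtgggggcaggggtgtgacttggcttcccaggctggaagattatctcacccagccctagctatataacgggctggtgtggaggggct
Searched on both strands over 300 bases (250 before to 50 after a start site), CATTCC occurs in 14.7% of all 32851 promoters of the table. Counted by gene, where a match at any start site suffices, it occurs in 14.6% of measured genes and 16 of the 77 higher genes that have a promoter there. A match of letters is not a shown binding site.

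Other stretch and structure genes were fewer. Mybph, the thick-filament protein myosin-binding protein H, had 3304 and 3514 in the eccentric, 1509 and 1663 in the isometric and 701 and 737 in the control pool. The 3 pools separated in that order, and the step from isometric to eccentric was 2.15-fold. Rcan1, an inhibitor of calcineurin, had 2360.0 and 2374 against 1144 and 705 and 1089.6 and 1145 in the control pool, a 2.64-fold difference with isometric B the lowest of all. Tubb6, a beta-tubulin, had 7701 and 7544 against 3204 and 3864 on a probe set that may cross-hybridise and was 2.17-fold higher, but not called without isometric A (log2 0.98). Of 17 tubulin and stathmin genes, 1 was called and 12 had both eccentric above both isometric arrays. The brightest, Tuba1c with 6733 and 7736 against 4432 and 4681, was among those not called.

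Myosin and actin isoforms of the heart and fetus did not move together. Actc1, the cardiac alpha-actin that fetal skeletal muscle also makes, was lower in the eccentric pool, at 8288 and 8217 against 21127 and 26106. The control arrays had 22315 and 22314, within the isometric range, and the difference was 2.85-fold. Its probe set is of a type that can cross-hybridise with other actins. A further probe set of the gene had pool means of 3717 (eccentric) and 22916 (isometric), the same direction. It too is of a type that can cross-hybridise, so the gene has no measured probe set free of that limit. Myl4, an embryonic and atrial myosin light chain, had 594 and 650.3 against 664 and 624 and did not separate.

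**Figure D3:**
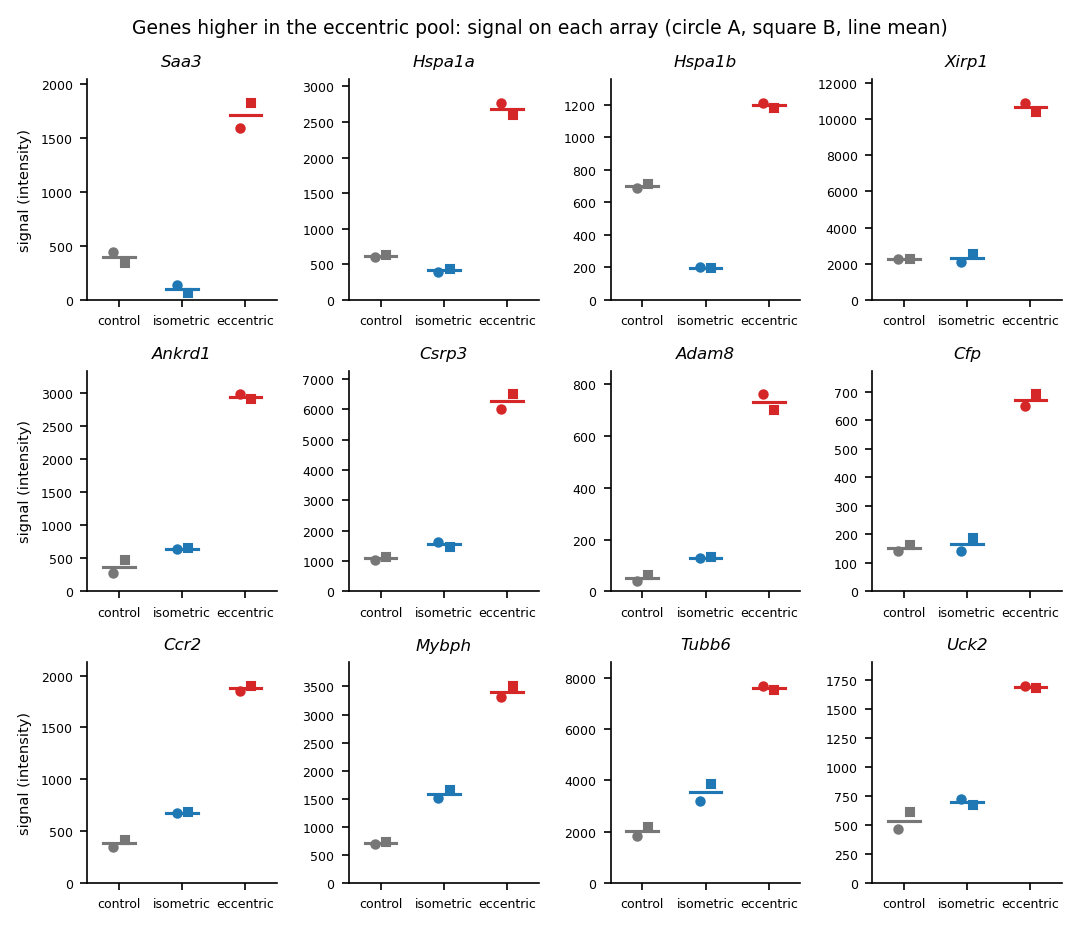
Signal (intensity, linear axis from 0) of 12 genes called higher in the eccentric pool on each of the 6 arrays, with circles for array A, squares for array B and a line at the mean of each pool. In every panel both eccentric arrays lie above both isometric arrays, while in Hspa1a, Hspa1b and Saa3 the isometric arrays lie below the control arrays.

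Among chaperones, the inducible Hsp70 pair had the largest differences. Hspa1a had 2770.4 and 2600.0 on the eccentric arrays and 389.5 and 438 on the isometric arrays, a 6.49-fold difference, and 601 and 635 on the control arrays. Hspa1b had 1212 and 1179 against 202 and 194, 6.04-fold, with 687 and 711 in the control pool. In both genes the isometric arrays were the lowest of the 6 and the eccentric arrays the highest. Part of each ratio therefore comes from an isometric pool below control, at log2 -1.82 for Hspa1b and -0.58 for Hspa1a. Both comparisons with control share the same control arrays. The 2 genes are near-identical copies, so their probe sets can share transcripts.

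Their promoters show how alike the copies are. The 250 bases before the start sites of Hspa1a (chr17:34972157-34972406) and Hspa1b (chr17:34959239-34959488), both on the minus strand of GRCm38.p6 and taken from RefSeq, differ at 3 positions. Capitals mark a pair of heat shock units, GAANNTTC, the letters that heat shock factor binds in arrays.
Hspa1a promoter: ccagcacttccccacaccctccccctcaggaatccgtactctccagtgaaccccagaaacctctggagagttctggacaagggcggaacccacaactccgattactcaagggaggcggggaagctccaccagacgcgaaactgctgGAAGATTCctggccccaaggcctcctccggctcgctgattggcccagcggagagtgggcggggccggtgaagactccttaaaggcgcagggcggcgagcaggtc
Hspa1b promoter: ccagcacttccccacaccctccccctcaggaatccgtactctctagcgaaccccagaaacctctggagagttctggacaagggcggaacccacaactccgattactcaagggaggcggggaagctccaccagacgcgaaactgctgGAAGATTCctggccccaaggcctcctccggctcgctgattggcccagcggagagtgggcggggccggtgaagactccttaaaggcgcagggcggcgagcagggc
In both, the match starts 104 bases before the start site. GAANNTTC occurs in 7.86% of all promoters of the table. Counted by gene, where a match at any start site suffices, it occurs in 6.97% of measured genes and 16 of 77 higher genes (20.8%) with a promoter there. The reverse arrangement TTCNNGAA occurs in 8.52% of all promoters, in 8.475% of measured genes and in 10 of the 77 (12.99%). These shares are descriptions with no test. A longer run of 3 such units was found in 0 of the 77, in 0.596% of measured genes and in 0.603% of all promoters.

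Of 9 measured members of the Hsp70 and Hsp110 family 2 were called, the pair above, and 7 were not. In 6 of the 9, the pair included, both eccentric arrays lay above both isometric ones, and in 2 both lay below. Hsph1, an Hsp110 that acts as a nucleotide exchange factor of Hsp70, had 1919 and 1988 against 1123 and 1187 (log2 0.76). Hspa8, the constitutive cytosolic form, had 4873 and 5104 against 5704 and 6614 and lay lower on both eccentric arrays. Hspa9 of the mitochondrion had 4877 and 5026 against 4456 and 5192, and the arrays overlapped. Hspa5, the form of the endoplasmic reticulum, had 4309 and 4334 against 3420.3 and 4104, with 1967 and 1923 in the control pool, so most of its step above control was already present in the isometric pool.

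Hsp90aa1, the inducible cytosolic Hsp90, had 3262 and 3272 against 1309 and 1368 and was 2.44-fold higher. Of 27 small heat shock, Hsp90 and co-chaperone genes 2 were called higher, Hsp90aa1 and Cryab, and 0 lower. Hspb8, a small heat shock protein that works with Bag3, had 11159.6 and 10952 against 5641 and 5925 and fell just short of 2-fold at log2 0.94. Hspb2 had 12197 and 12427 against 9118 and 11153 and Hspd1, the mitochondrial chaperonin, 6821 and 7226 against 6209 and 6146. The list's median was 0.16. In the endoplasmic reticulum stress list 0 of 17 genes were called, with a median of 0.37. Metallothionein Mt2 lay at 15858 and 14297 against 6786 and 8629.6, log2 0.98, also short of the threshold.

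Saa3, an acute-phase serum amyloid A protein made by injured tissue and macrophages, showed the largest difference of the comparison. It was named after its values were seen, since 1 isometric array lay below the floor. Its signals were 1592 and 1824 on the eccentric, 136 and 62.6 on the isometric and 441 and 344 on the control arrays. With the lower isometric signal set to the floor, the ratio was 13.3-fold. Saa3 was lower in the isometric than in the control pool on both arrays, as in the Hsp70 pair. The 250 bases before its start site (chr7:46715677-46715926, minus strand, GRCm38.p6) are given because C/EBP factors are known regulators of acute-phase genes. Capitals mark the single match to TTGCNNAA on either strand.
Saa3 promoter: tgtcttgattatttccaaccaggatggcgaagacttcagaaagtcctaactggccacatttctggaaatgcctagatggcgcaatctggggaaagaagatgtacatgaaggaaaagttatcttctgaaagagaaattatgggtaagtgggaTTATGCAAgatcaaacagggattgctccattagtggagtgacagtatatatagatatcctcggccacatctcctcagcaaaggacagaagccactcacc
TTGCNNAA occurs in 10.8% of all promoters. Counted by gene, it occurs in 10.4% of measured genes and in 16 of 77 higher genes (20.8%), against 2 of 30 lower genes (6.67%), with no test.

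Macrophage and monocyte genes were higher in the eccentric pool across most of the list. Of 40 measured genes 12 were called higher and 0 lower, and 34 had both eccentric arrays above both isometric ones. Over all measured genes, 28.5% had both eccentric arrays above and 25.1% both below. The list's median was 0.78 and ran from 0.71 to 0.88 without single arrays. Over all alternatives its lowest value was 0.50. The list's summed signals, given above, were higher in the isometric than in the control pool as well, by a smaller step.

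Adam8, a membrane protease of leukocytes, had 762 and 700.1 against 128 and 132, a 5.61-fold difference, and both control arrays were below the floor. Cd53, a leukocyte tetraspanin, had 985 and 874 against 246 and 118, with isometric B below the floor, and was 5.38-fold higher. Lst1, a small transmembrane protein of leukocytes, had 562 and 515 against 84.1 and 193, with isometric A below the floor, and was 3.52-fold higher. The ratios of Cd53 and Lst1 thus rest on a floored array. Ccr2, the receptor through which monocytes follow Ccl2 and Ccl7, was well above the floor throughout, at 1850.2 and 1903 against 672 and 683 and 350.0 and 417 in the control pool. The pools formed 3 separate steps, and the eccentric pool was 2.77-fold above the isometric one.

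Phagocytic receptors gave smaller ratios. Mrc1, the mannose receptor of tissue macrophages, had 761 and 846 against 365 and 226 (2.80-fold). Fcgr2b, the inhibitory Fc receptor, had 369.8 and 345 against 156 and 105 (2.60-fold), and Fcgr1, the high-affinity one, 748 and 666 against 343 and 249 (2.42-fold). In each the isometric arrays lay in or near the control range, which was 199 and 315 for Mrc1, 108 and 98.7 for Fcgr2b and 311 and 354 for Fcgr1. Isometric B lay below the floor for Fcgr2b. The Fc receptor probe sets are open to cross-hybridisation. Another probe set of Fcgr1 differed by at least log2 0.74, with an isometric mean of 41.0, below the floor. Among the members that were not called, 3 of the brightest had smaller differences. Lyz2, lysozyme, had 6227 and 6374 against 4911 and 4081 and Lgals3, galectin-3, 3412 and 3424 against 2449 and 2032. Mpeg1, a pore-forming protein of macrophages, had 2796 and 2626 against 1805 and 1228. In all 3 both eccentric arrays were above both isometric ones, and both isometric arrays were above both control arrays (1964 and 2070.1, 1088 and 1134 and 995 and 1087).

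Some called genes outside the list are known from leukocytes, and each is named for its own size. Ms4a6c, a membrane protein of myeloid cells, had 818 and 754 against 211 and 152 (4.38-fold). Slfn2, a schlafen protein of leukocytes named after its values were seen, had 558 and 496 against 92.9 and 133, and its further probe set differed by only 0.44 on the log2 scale. Both were measured on probe sets open to cross-hybridisation. Ltb4r1, the receptor for leukotriene B4, had 446 and 465 against 102 and 111, both below the floor, and was at least 3.77-fold higher. Was, the actin regulator mutated in Wiskott-Aldrich syndrome, was at least 2.42-fold higher, and Slc7a7, an amino acid transporter of macrophages, at least 2.55-fold. Arg1, the arginase of alternatively activated macrophages, had 254 and 237 against 27.4 and 30.4, both below the floor. Its bound of at least 2.03-fold was not called without eccentric A (log2 0.97), under a higher floor or under another scaling.

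Complement followed the macrophage genes. Of 11 measured genes 4 were called higher, 10 had both eccentric arrays above both isometric ones, and the median was 0.64. Cfp, properdin, which stabilises the alternative-pathway convertase, had 650.1 and 692 against 143 and 187 with 140.4 and 163 in the control pool. The isometric and control arrays overlapped, and the eccentric pool was 4.10-fold above isometric. C3ar1, the receptor for C3a, had 1070.0 and 940.4 against 494 and 470.4 (2.08-fold), and fell short without eccentric A (log2 0.96).

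The C1q chains, which start the classical pathway, were less uniform. C1qa had 1869 and 1967 against 1109 and 702 (2.17-fold) and was not called without isometric B (log2 0.79). C1qb had 2171 and 2013 against 958 and 1067, but another probe set of nearly equal brightness differed by -0.95, so its direction depends on the probe set. It was also not called without eccentric A or without isometric A, where its lowest value was 0.97. C1qc had 1939 and 1951 against 1700.5 and 1289.9 and was not called.

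Chemokines and their receptors held 5 called genes of 22, all higher, at a median of 0.40. Over all alternatives the median ran from 0.00 to 0.45. Ccl8 and Cxcl5 counted among the 22 only through the eccentric pool. Ccl9, a monocyte attractant that macrophages make, had 4375 and 4422 against 1430.5 and 1568 and 1028 and 1062 in the control pool. It was the brightest called chemokine, 2.94-fold higher, with 3 separate pools. Ccl8 had 507 and 461 against 62.0 and 57.8, both below the floor, and was at least 4.00-fold higher. Its control arrays were 77.1 and 199, 1 on each side of the floor. Ccl7, another ligand of Ccr2, had 970.4 and 952 against 468 and 469 (2.05-fold) and was not called after scaling to equal medians or quantiles. Cxcl5, which attracts neutrophils, was at least 2.57-fold higher at 300.1 and 320.2, with both isometric arrays below the floor. Ccl2, the main Ccr2 ligand, was not called at 1688 and 1767 against 1439 and 1112. Its control signals of 427 and 421 show that the isometric pool was already well above control.

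Neutrophil genes were split. The calgranulins S100a8 and S100a9, which neutrophils hold in their cytosol and which monocytes make too, were the called genes among 7 measured. S100a8 had 355 and 382 against 132 and 104 (2.92-fold, with isometric B below the floor). S100a9 had 248 and 326 against 75.1 and 46.6 (at least 2.36-fold). Both genes counted as measured through the eccentric pool alone, and neither did when all 4 arrays had to lie above the floor. Of the 17 neutrophil genes on the array, 4 lay above the floor on all 4 arrays. Lcn2, a protein of neutrophil granules, had 361 and 286 against 394 and 386, and the granule peptide Camp 356 and 249.9 against 366 and 263. Neither granule gene was higher in the eccentric pool. The list's summed signal was higher on both eccentric arrays than on either isometric one, and it overlapped between the eccentric and control arrays.

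Antigen presentation differed as a group. All 8 measured MHC class II genes had both eccentric arrays above both isometric ones, and 3 were called, at a median of 0.87 that ran from 0.70 to 0.94 without single arrays. Over all alternatives the lowest median was 0.58. H2-Aa, the alpha chain of I-A, had 3531 and 3419 against 1554 and 1384 (2.37-fold). Cd74, the invariant chain, had 7768 and 7097 against 3785 and 4090.2 and lay just short at log2 0.92. H2-Eb1 had 2647 and 2544 against 1924 and 1731 and H2-Ab1 1366 and 1064 against 703 and 923. The peptide loaders H2-DMa (log2 1.04) and H2-DMb1 (1.05) were called, but neither without eccentric A or without isometric A, where the lowest values were 0.94 and 0.71. Another probe set of H2-DMa differed by -0.03.

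Of 12 MHC class I and immunoproteasome genes 0 were called, with 7 showing both eccentric arrays above both isometric ones and a median of 0.39. H2-K1 had 3423 and 3547 against 2257 and 2004, and B2m 3029 and 2639.9 against 2429.5 and 2192. H2-K2, a class I gene outside that list whose probe set may also bind other class I transcripts, was called at 2816 and 2401 against 1188 and 527. Isometric A and B differed more than 2-fold there. In the interferon list 0 of 20 genes were called, at a median of 0.24, and in the lymphocyte and natural killer cell list 0 of 7.

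Cytokine receptors and growth factors added a few calls. Of 26 cytokine and receptor genes 2 were called higher, at a median of 0.42. Il4ra, the receptor chain shared by IL-4 and IL-13, had 568 and 482 against 211 and 194 (2.58-fold), but its further probe set differed by -0.06. Il1r1, the signalling receptor of IL-1, had 441 and 316 against 206 and 149, and was not called without eccentric A or isometric B (lowest log2 0.85). Tgfb1 had 352 and 329.8 against 132 and 153 (2.40-fold), just above the floor in the isometric pool. Tgfbi, a matrix protein induced by TGF-beta, had 1616 and 1676 against 668 and 523 (2.78-fold), with control arrays at 474 and 729 around the isometric ones.

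Lysosomal genes separated the pools more often than they were called. Of 36 cathepsin and lysosome genes 3 were called higher and 25 had both eccentric arrays above both isometric ones, at a median of 0.42. Ctss, the cathepsin of antigen-presenting cells, had 7196 and 6923 against 3085 and 3208 (2.24-fold). Lgmn, legumain, had 2176 and 2406 against 1195 and 768 and Ctsh 650.4 and 665 against 339.9 and 309, and neither was called without isometric B (log2 0.94 and 0.95). Ctsd, the bright general cathepsin, had 13428 and 13259 against 10700.2 and 12862 and Cst3, cystatin C, 11932 and 11826 against 13425 and 12662. The macrophage marker sum moved with these lists, from the complement to the lysosome, and its part in them was not tested. Ctss and the chemokine receptor Ccr2 are members of the macrophage list too, so these lists are not separate from that sum.

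Genes that act on the matrix included proteases, their inhibitors and a cross-linker. Of 20 proteases, inhibitors and cross-linkers 5 were called higher, Adam8 among them, and 2 without isometric A. Mmp3, stromelysin, had 286 and 508 against 65.8 and 70.7, both below the floor, and was at least 3.15-fold higher. Timp1, a metalloprotease inhibitor, had 2630.5 and 2893 against 1092 and 1652 (2.05-fold), and was not called without eccentric B or isometric A (lowest log2 0.74). Lox, which cross-links collagen, had 402 and 369.9 against 159.8 and 206 and Serpina3n, a serine protease inhibitor, 2198 and 2082 against 987 and 1069.8. Neither was called without isometric A (log2 0.91 and 0.9997). Timp3, which was not called, lay the other way at 1649 and 1917 against 2766 and 2156.

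Among 45 collagens and matrix proteins 1 was called higher and 1 lower, at a median of 0.02. Vcan, versican, had 508 and 561 against 335 and 78.1, and its call was lost without isometric B (log2 0.67). Col9a1, a fibril-associated collagen, was lower at 366 and 268 against 709 and 627, a call lost without eccentric B (log2 -0.86). Col1a1 had 6834 and 6512 against 11646 and 12344, with 9478 and 8328 in the control pool, and was not called at log2 -0.85. Its eccentric arrays were the lowest and its isometric arrays the highest of the 6. Dcn, decorin, had 12909 and 11670.5 against 9586 and 10995.

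Membrane-repair and cytoskeletal genes showed many small differences. Of 18 annexin and S100 genes 2 were called higher and 13 had both eccentric arrays above both isometric ones, at a median of 0.49. Anxa2, which gathers at membrane lesions, had 6216 and 6164 against 2551 and 3236 (2.15-fold), and was not called without isometric A (log2 0.94). S100a4 had 3614 and 4177 against 1998 and 1851 (2.02-fold), and was not called without eccentric B or isometric B (lowest log2 0.91). S100a6, a calcium-binding partner of annexins, had 8832 and 9841 against 4929.7 and 4859.5 and Ahnak, a large scaffold of the membrane, 7773 and 7442 against 5213 and 5364. In the 51 non-muscle actin genes 2 were called higher, Was and Cotl1, at a median of 0.29.

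Genes of cell division and of protein synthesis and breakdown showed small differences, most of them above 0 in the cell cycle, proteasome and ribosomal protein lists. In the cell cycle list 0 of 49 genes were called, while 29 had both eccentric arrays above both isometric ones and the median was 0.32. Cdk4 had 2131 and 2278 against 1869.5 and 1906. In the proteasome list 0 of 34 were called, at a median of 0.18, while 30 differences lay above 0 and 20 genes had both eccentric arrays above both isometric ones. In the ribosomal protein list 0 of 24 were called, at 0.16, and 12 had both eccentric arrays above. The ubiquitin and atrophy list had 0 of 28 called at -0.09. In it 8 genes (28.6%) were lower on both eccentric arrays, near the 25.1% of all measured genes. Uck2, a kinase that salvages uridine and cytidine, had 1698 and 1681 against 726 and 667 (2.43-fold), the isometric arrays standing just above control (464 and 609).

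Myogenic and growth genes showed isolated differences. Of 24 myogenic regulators 1 was called, Notch1, a receptor that keeps satellite cells undifferentiated, at 488 and 391 against 188 and 236. Its call was lost without eccentric A or isometric A (lowest log2 0.89). The call was also lost after scaling to equal medians or quantiles and with the mean of its probe sets. Another probe set of Notch1, too dim to count as measured, differed by -0.49. Myog, the myogenin of differentiating muscle cells, had 1132 and 767 against 618 and 1062, and the arrays overlapped. Myf6 had 1866 and 2023 against 1362 and 1346 and was not called. Mstn, myostatin, the inhibitor of muscle growth, was called lower at 399 and 366 against 848 and 722, with 903 and 1038 in the control pool. The call was lost without eccentric B or isometric A, where log2 -0.92 was the value nearest 0. Igf1 had 1262 and 1380.4 against 1642 and 1634 and was not called.

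Immediate early genes ran the other way in part. Of 24 measured genes 0 were called, at a median of -0.12. Fos had 2127 and 1926 in the eccentric, 3329.7 and 3302 in the isometric and 1369.9 and 1550.0 in the control pool, so the isometric arrays were the highest of the 3 pools. The difference was log2 -0.71. Vegfa, a growth factor of vessels, had a difference of -0.31 with overlapping arrays.

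**Figure D4:**
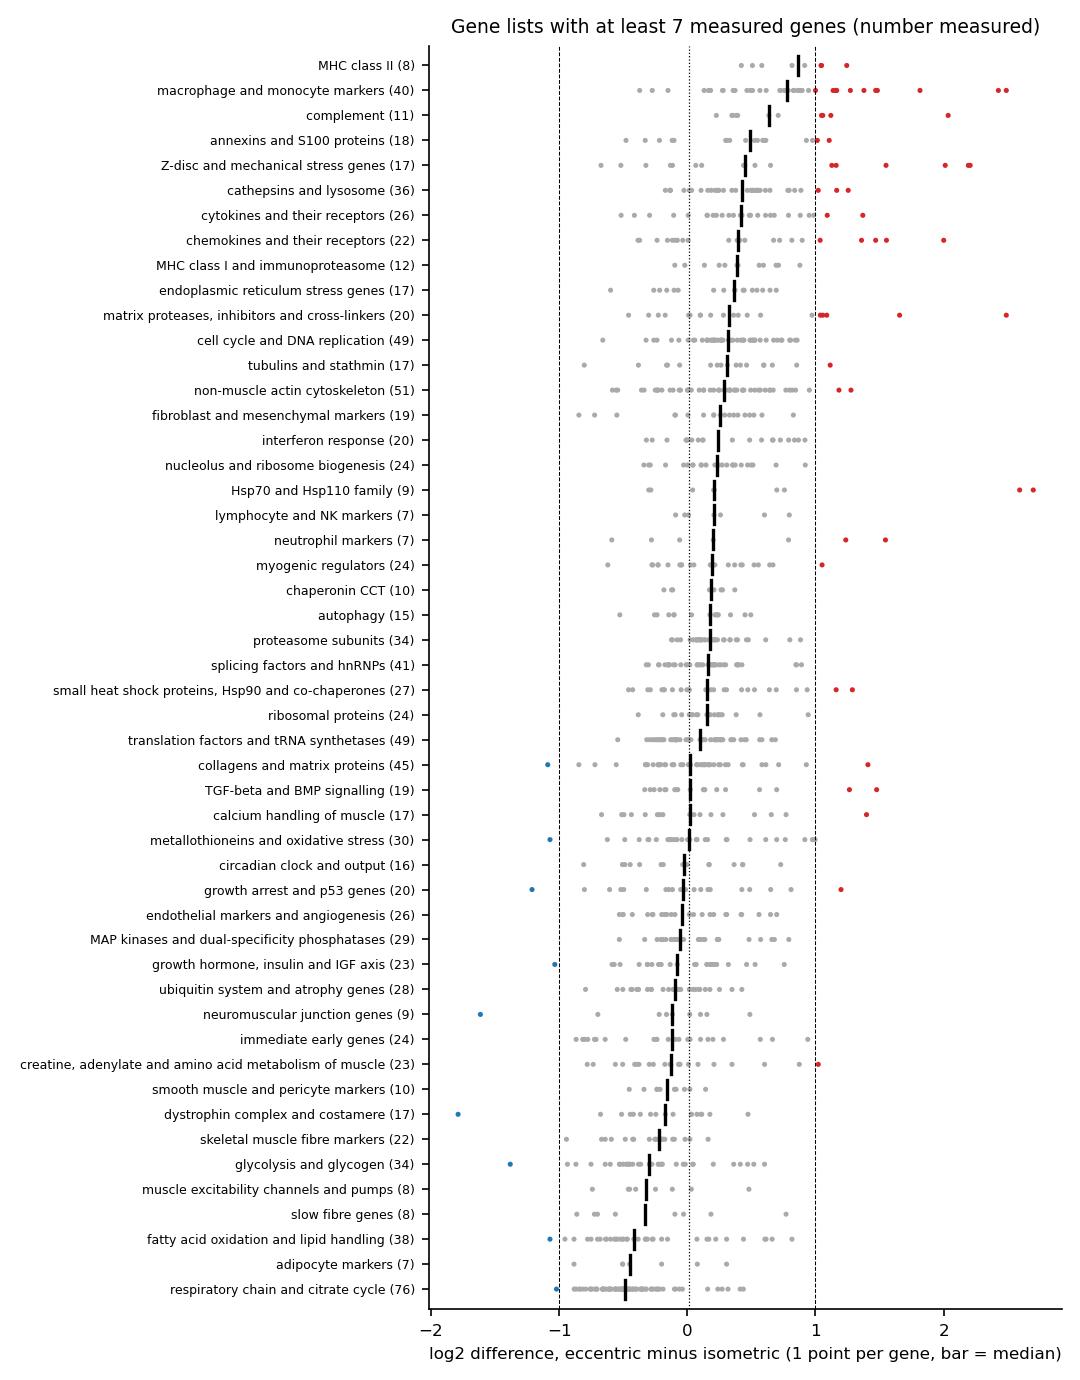
Log2 difference of the eccentric and isometric pools for the measured genes of each list with at least 7 of them, 1 point per gene, with called genes in red (higher) or blue (lower) and a bar at each list's median. The dotted line marks the median of all genes, 0.02, and the dashed lines 2-fold. MHC class II, macrophage and complement genes lie furthest to the right, and respiratory chain genes, with 70 of 76 below 0, furthest to the left.

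Energy metabolism was lower in the eccentric pool by small, common differences. Of 76 respiratory chain and citrate cycle genes 70 had differences below 0, and 63 had both eccentric arrays below both isometric ones, where 25.1% of all measured genes did. Only 1 was called lower. The median was -0.49 and ran from -0.56 to -0.38 without single arrays. Of the list, 61 genes were among the 1125 brightest measured genes, whose own median was -0.11. Cycs, cytochrome c, the called gene, had 1203 and 1246 against 3365 and 1834. Isometric A and B were far apart there, and the call was lost without eccentric A or isometric A (log2 nearest 0, -0.58). The brightest members showed how isometric B weighs on this list. Ndufb5 of complex I had 25125 and 24282 against 24860.5 and 36305, and the adenine nucleotide carrier Slc25a4 20236 and 19860.1 against 21630.3 and 28981. Isometric A was at or near the eccentric arrays in both, and isometric B well above.

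The median of 38 fatty acid genes was -0.41. Of these, 1 was called lower and 24 (63.2%) were lower on both eccentric arrays than on either isometric one, against 25.1% of all measured genes. Among the 1125 brightest genes, with a median of -0.11, were 21 of the 38. Ucp3, the uncoupling protein of muscle mitochondria, had 710.5 and 703 against 1328 and 1661, with 1309.9 and 1363 in the control pool. It was 2.10-fold lower, and not called without isometric B (log2 -0.91). Acaa2, the thiolase of beta-oxidation, had 7951 and 8356 against 12589.6 and 15512 and Hadhb, of the trifunctional protein, 3974 and 3854 against 5250.4 and 5834. Lpl, lipoprotein lipase, had 3524 and 3688 against 5315 and 4922. In these 3 genes the pools separated without reaching 2-fold.

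Glycolysis and glycogen genes had a median of -0.30, which ran from -0.41 to -0.23 without single arrays. Among the 1125 brightest genes, with a median of -0.11, were 22 of the 34 measured. Gpd1, which links glycolysis to lipid synthesis and the glycerol phosphate shuttle, was the called gene of 34. It had 1663 and 1486 in the eccentric, 4065 and 4126 in the isometric and 3334 and 3851 in the control pool, 2.60-fold lower than isometric. Its further probe set differed by -1.26. That one is open to cross-hybridisation, and its eccentric mean of 136 lay near the floor. Slc37a4, the glucose 6-phosphate transporter of the endoplasmic reticulum, was called outside the list, at 1056 and 1428 against 3271 and 2806 (2.47-fold lower). Aldoa, aldolase, had 30891 and 27456 against 25779 and 44256, and Pygm, muscle glycogen phosphorylase, 21267 and 19843 against 24107 and 31576.

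Some called genes that stand in no list code for proteins known from mitochondria, and each is named for its own size. Slc25a25, a calcium-regulated ATP-Mg carrier, had 877 and 919 against 1966 and 2083 (2.25-fold lower), and its control arrays of 1444 and 1823 lay between. Sirt3, the mitochondrial deacetylase, had 179 and 150.2 against 384 and 352. Slc25a11, the oxoglutarate carrier, had 2494 and 2500.2 against 6162 and 4231 and was not called without isometric A (log2 -0.76). Ppif, the cyclophilin of the permeability pore, had 712 and 501 against 1155 and 1435, a call lost without eccentric B or isometric B (nearest 0, -0.85). Hibadh, of valine breakdown, and Acot13, an acyl-CoA thioesterase, were called at log2 -1.02 and -1.08. Hibadh was not called without eccentric A or isometric A (-0.96 nearest 0), nor Acot13 without isometric A (-0.83).

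**Figure D5:**
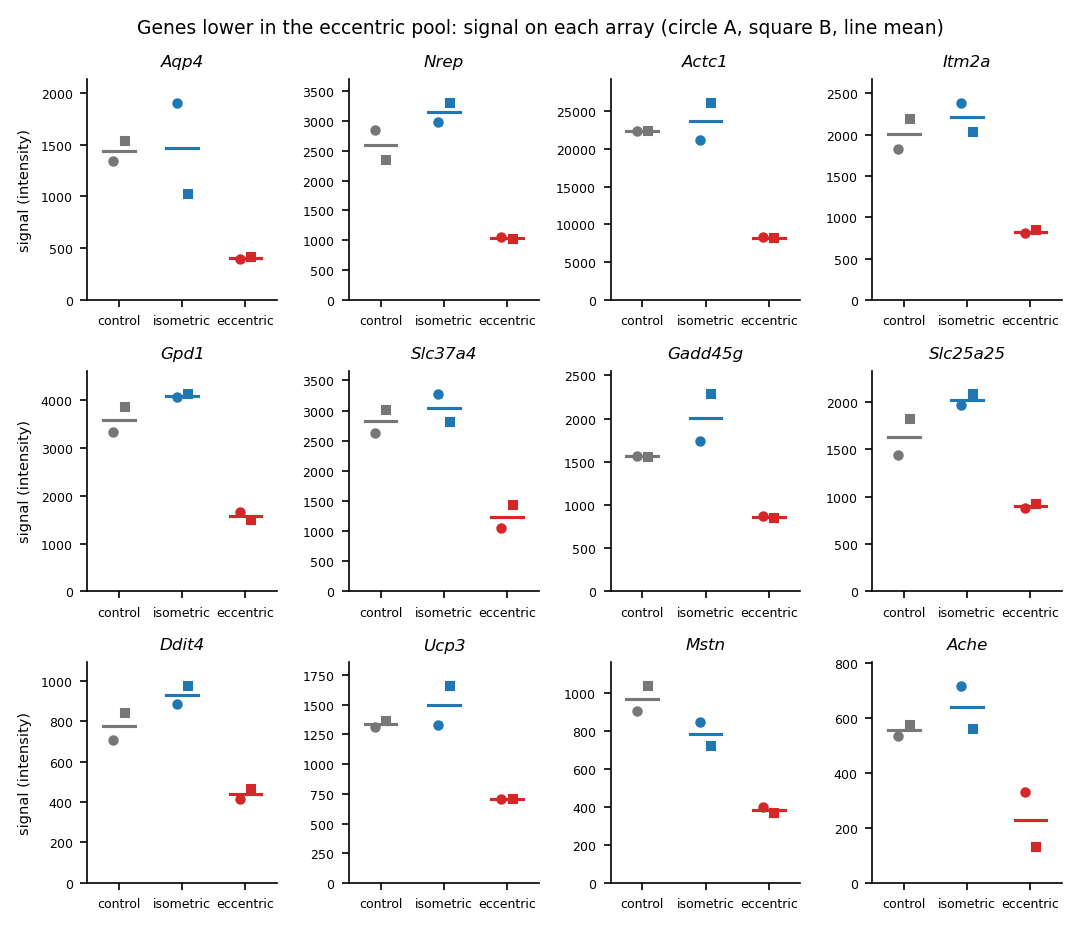
Signal (intensity, linear axis from 0) of 12 genes called lower in the eccentric pool on each of the 6 arrays, with circles for array A, squares for array B and a line at the mean of each pool. In each panel both eccentric arrays lie below all other arrays, and in Aqp4 the isometric arrays, at 1905 and 1026, lie on either side of both control arrays.

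The membrane gene Aqp4 was the lowest of all. Aqp4 is the water channel that the dystrophin complex holds in the membrane of fast fibres. It had 391 and 419 on the eccentric, 1905 and 1026 on the isometric and 1338 and 1539.6 on the control arrays. The ratio was 3.45-fold, though it ranged from log2 -2.23 without isometric B to -1.34 without isometric A. Its further probe set, of a type open to cross-hybridisation and at means of 145 and 341, differed by -1.21. Of 17 genes of the dystrophin complex and costamere it was the only one called, and the median was -0.17.

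Nrep, Itm2a and Ache were among the 6 lowest genes. Nrep, a small protein linked to nerve and muscle regeneration, had 1057 and 1019 against 2984 and 3307, with 2855 and 2343 in the control pool, and was 3.03-fold lower. Itm2a, a membrane protein of differentiating muscle cells, had 804 and 850.3 against 2387 and 2034 (2.66-fold lower). Ache, the acetylcholinesterase of the neuromuscular junction, had 332 and 129 against 718 and 560.5 (3.06-fold lower). Its eccentric arrays were far apart, and without eccentric B the log2 difference was -0.94 and not called. Of 9 measured junction genes it was the one called, while 4, Ache included, had both eccentric arrays below both isometric ones and 0 had both above. The acetylcholine receptor subunits Chrna1, at 265 and 329 against 527 and 434, and Chrnb1, at 824 and 933 against 981 and 1062, were among the 4. Rapsn, which clusters the receptor, overlapped at 1202 and 986 against 1053 and 1094. Of 6 Schwann cell and nerve genes 0 were called.

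Of 20 growth arrest and p53 genes 1 was called lower, Gadd45g, and 1 higher, Phlda1. Gadd45g, a growth-arrest protein, had 871 and 849 against 1738 and 2282 (2.32-fold lower). Ddit4, an inhibitor of mTORC1, had 415 and 464 against 886 and 975 (2.12-fold lower). In both the control arrays (1566 and 1556 and 708 and 838) lay between the pools. Smyd2, a lysine methyltransferase of muscle, had 1390.0 and 1112 against 2368 and 2982, a call lost without eccentric B or isometric B (nearest 0, -0.93). Pim3, a kinase of cell survival, lay below the floor on both eccentric arrays and was at least 3.19-fold lower, against 493 and 302 on the isometric arrays. Its control arrays of 88.0 and 456 were on either side of the floor. Tbx2, a T-box factor, had eccentric arrays below the floor too and was at least 2.13-fold lower, a call lost without isometric B.

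Other promoter motifs were searched in the same 300-base windows, available for 107 of the 135 called genes. The PU.1 box GAGGAAGT, bound by a factor of myeloid cells, occurred in 8 of the 77 higher genes (10.4%) and in 3.29% of measured genes. It also occurred in 2 of the 30 lower genes (6.67%), Fancc and Phxr4. The 8 higher genes were Cd53, Cd82, Ctss, Ltb4r1, Pld4, Rhog, S100a4 and S100a8. The AP-1 letters TGANTCA occurred in 11 of the 77 (14.3%) against 6.84%, the GAS letters TTCNNNGAA in 4 (5.19%) against 7.83% and the E-box CANNTG in 56 (72.7%) against 67.5%. Single strict forms of the kappa B, MEF2 and CArG motifs occurred in 0 of the 77, and in 0.24%, 0.20% and 0% of measured genes. The ERR letters TCAAGGTCA occurred in 0.33% and a strict NRF1 motif in 2.27% of measured genes, and neither in any of the 30 lower genes with a promoter, a number too small to show such shares. In all 14 motifs were searched, on both strands, and no test was made of any share.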

How the data were processed

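Total RNA of mouse tibialis anterior was measured on 6 Affymetrix MGU74Av2 arrays, of which the 2 eccentric and 2 isometric arrays are compared here and the 2 control arrays given as background. The values are linear intensities deposited by the authors, 1 for each probe set on each array. How they were computed from the probes is not given in the sources used here. The arrays had nearly equal trimmed means, so a shift shared by most genes cannot be seen. Each array was multiplied to the same mean after trimming 2% of values at each end, by factors of at most 1.00002. Signals were floored at the 40th percentile (120.8) and log2 was taken. Of the probe sets, 10833 had 1 gene in the platform annotation, 396 several and 1193 none, and 66 were controls. For the 2073 genes with more than 1 probe set, the one with the highest mean over the 6 arrays was used. A fold is the ratio of the pools' geometric means after flooring, and "at least" marks a pool at the floor on both arrays. The precision is limited by the 2 arrays of each pool.

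The genes, the 53 gene lists and the rules were chosen with earlier results of these data known. The text names the 25 highest and 25 lowest called genes that no array put below the floor, up to 8 bounds a direction, up to 8 called and 3 brightest uncalled members of a list, and preset genes (Csrp3, Ankrd1, Ankrd2, Xirp1, Myog, Des, Ckm, Acta1, Fos, Mstn, Ppargc1a, Vegfa and Igf1, of which Ppargc1a did not pass the floor). Saa3, Slfn2, Plac8 and Sypl2 were named after their values were seen. The size rule was checked on simulated data, with changes of 3-fold or more in genes well above the floor. That check does not cover calls between 2-fold and 3-fold, nor dim genes. Alternatives changed the scaling, floor, filter, fold, agreement of arrays and probe set, or left out an array. Python 3.11.15, numpy 2.4.6, pandas 2.3.3 and matplotlib 3.10.9 were used.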

Additional observations from a re-analysis of the deposited data

Results flagged for a closer look

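In 15 called genes the eccentric arrays lay on one side of both control arrays and the isometric arrays on the other. This difference between the responses of the pools was not tested, and both sides share the same control arrays. The log2 differences of the eccentric and isometric pools were 3.73 for Saa3, 2.70 for Hspa1a, 2.59 for Hspa1b, 1.80 for Cln8, 1.17 for Plac8, 1.09 for Il1r1 and 1.06 for Serpina3n, with the eccentric pool above and the isometric pool below control. In the opposite arrangement were Nrep at -1.60, Gpd1 at -1.38, Prcc at -1.30, Gadd45g at -1.21, Slc25a25 at -1.17, Col9a1 at -1.09, Ddit4 at -1.08 and Sypl2 at -1.01. In Hspa1b the isometric arrays had 202 and 194 against 687 and 711 on the control arrays, and in Saa3, where isometric B lay below the floor, 136 and 62.6 against 441 and 344. Prcc had 1160.4 and 401 on the eccentric arrays and lost its call without eccentric B, and Sypl2 lost its call without eccentric B or isometric B.

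Outside the gene counts were 1589 probe sets with several annotated genes or none. Of these, 719 were measured, 6 were past the rule higher and 3 lower in the eccentric pool. Of the 6, 3 were also at least 2-fold above the control pool on both arrays.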

How the results depend on the processing

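The direction of calls, more higher than lower, was the same under all 18 alternatives, but the counts moved with the floor, the threshold and single arrays. Asking only same-letter arrays to agree, or dropping the filter on dim genes, could not have changed the calls, however. All 135 genes past 2-fold already had 1 sign in every pairing. A gene that fails the filter has an array at the floor in each pool, so its 4 pairings cannot all share a sign. Higher and lower genes numbered 160 and 72 with no floor, 433 and 278 at 1.5-fold, 18 and 4 at 3-fold, and 49 and 7 where every pairing had to pass 2-fold. With the floor at the 30th or 50th percentile, 60 or 25 genes were lower. Leaving out 1 array at a time gave 119 to 154 higher and 57 to 71 lower genes, with 1 array standing for a pool, and 106 to 118 of the 135 calls were shared. The most higher genes came without isometric A and the most lower genes without isometric B. With the replicate block, in which only arrays of the same letter had to agree in sign, 97 were higher and 38 lower, the same 135 genes. The letters are not known to pair the arrays of different pools. Scaling to equal medians gave 126 calls, 119 of them shared, and quantile normalization 129, with 121 shared. Of 90 called genes that the naming rule allows, 56 were called without each array in turn.

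Some directions turned with the probe set. C1qb was -1.01 after scaling to equal medians, where another of its probe sets became the brightest, and -0.95 on its dimmest measured probe set. On that choice Cd82 was -0.0014, H2-DMa -0.034, Il4ra -0.059 and Fancc 0.32. The isometric mean of that Fancc probe set, 63.9, lay below the floor. Of the 135 called genes 19 had another measured probe set, 6 of them with one of opposite sign, and 21 were called on probe sets open to cross-hybridisation. Signals near the floor set the ratios of dim genes, and with 1 pool a group the spread between animals cannot be told apart from the effect of contraction.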

Other observations

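In some called genes the isometric pool stood further from control than the eccentric pool. Pspn, the neurotrophic factor persephin, had 633 and 552 on the eccentric, 221 and 233 on the isometric and 666 and 738 on the control arrays. Traip, a ubiquitin ligase of the DNA damage response, had 507 and 521, 256 and 164 and 704 and 443 in the same order. In both the isometric arrays were the lowest of the 6. Slc48a1, a haem transporter, went the other way at 202 and 313, 473 and 550.1 and 196 and 295, and its call was lost without eccentric A or isometric B (nearest 0, -0.70).

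Cln8, a protein of the endoplasmic reticulum, had 711 and 401 against 158 and 149, and Cd82, a tetraspanin, 1264 and 1317 against 470.5 and 481. A further probe set of Cd82 had pool means of 508 (eccentric) and 513 (isometric). Phlda1 had 507 and 512 against 207 and 238 (2.30-fold), and Nt5dc2 523 and 342 against 139 and 147 (2.96-fold). Tcp10b, whose probe set may cross-hybridise, had 566 and 548 against 168 and 256 (2.69-fold).

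Among the lower genes, Sar1b, a GTPase of vesicle transport from the endoplasmic reticulum, had 1721 and 1508 on the eccentric, 2904 and 4215 on the isometric and 4087 and 4226 on the control arrays. Its probe set is open to cross-hybridisation, another that is open to it too differed by -0.55, and the call was lost without isometric B (log2 -0.85). Hcn3, a cation channel opened by hyperpolarisation, had 168 and 182 against 431 and 318, a call lost without isometric A (log2 -0.86).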
